A study of Mus musculus with 8 samples.

Results

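The 41 genes described here encode the machinery that copies DNA in S phase. They were chosen by their function, with earlier results of these data known, and comprised 4 genes that control entry into S phase, 10 of origin licensing, 6 of helicase activation, 6 of polymerases and primase, 4 of the sliding clamp and its loader, 3 of strand binding and joining, 5 of nucleotide supply and 3 that copy chromatin. All 41 were found among the 32726 gene identifiers of the count table, and all 41 passed the filter on low counts, which kept 16272 identifiers. They were measured by poly-A RNA sequencing of cultured mouse neurons at 5 days in vitro, 4 libraries from Nuak1 knockout (KO) and 4 from wild-type (WT) cultures, each named by genotype and replicate number (KO1 to KO4, WT1 to WT4). The knockout was constitutive, so every cell of a KO culture lacked NUAK1, a kinase related to AMPK that controls axon branching, and such animals die at birth. The study's methods state that its mutant mice were kept on a C57Bl/6JRj background. The tissue label of each library reads cortex or hippocampus. No treatment is listed for either genotype, and the study's methods count as many animals per genotype as there are libraries, without tying single libraries to animals.

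DNA is copied once per cell cycle. In G1 the origin recognition complex, CDC6 and CDT1 load the MCM2 to MCM7 ring onto DNA, and at the start of S phase CDC45 and the GINS complex turn that ring into an active helicase. Polymerases then extend primers behind it, held to DNA by the PCNA clamp, while ribonucleotide reductase and other enzymes make the nucleotides and chromatin assembly factors rebuild nucleosomes. Many of these genes are transcribed by E2F factors when a cell commits to S phase. Neurons have left the cell cycle, and in cultures of embryonic brain, dividing progenitors and glia are the usual source of replication transcripts.

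Nuak1 itself stood at 2.47, 2.72, 1.96 and 2.35 CPM (counts scaled by the library total) in KO1 to KO4 and at 51.6, 68.5, 82.6 and 75.3 CPM in WT1 to WT4 (log2 fold change -4.90, edgeR's quasi-likelihood test, adjusted p = 1.38e-07), so each library matched its genotype label. Library totals lay between 31247078 and 67155004 counts. The 12 neuron markers summed to between 8347 and 9517 CPM, with no marker of that list at 0. Of them, Slc17a7, the vesicular glutamate transporter, was called lower in the KO (log2 fold change -0.32, edgeR's adjusted p = 0.382). KO1 and WT1 stood apart from the other 6 libraries, with values of -0.56 and -0.62 on the fitted surrogate variable against 0.045 to 0.38 elsewhere. Lane A carried KO1, KO4 and 2 WT libraries, WT1 and WT3, and lane B the other 4. The labels also give a strain label, which was BJ in KO1 to KO3, BK in KO4, WT2 and WT4, BO in WT1 and BQ in WT3. These codes are not explained and also begin the library titles, so they need not name mouse strains.

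Replication genes were slightly higher in the KO libraries, and no single gene passed the adjusted threshold. Of 41 members, 39 had a fitted log2 fold change above 0 and their median was 0.21, against 53.4% above 0 and a median of 0.014 over all 16272 genes tested. The median was 0.12 without WT1 and 0.14 without WT3, with 36 of 41 above 0 in each case. All values without WT1 come from a fit with 2 surrogate variables, in place of 1. With 2 of them and all 8 libraries the median was 0.16, so these 2 changes cannot be told apart. At an adjusted p under 0.05, 0 members passed by edgeR's quasi-likelihood test, against 0.0492% of all genes, and 0 by DESeq2, which called 165 of all genes. The lowest adjusted p of a member in edgeR was 0.270, for Dut. At an unadjusted p under 0.05, 14 members passed, which is 34.1% of them against 10.5% of all genes. The lower study threshold, an unadjusted p under 0.05 with an absolute log2 fold change above 0.25, called 9 members higher in the KO, or 22.0% of them, against a background of 2.16% of all genes called higher. It called 0 members lower, against a background of 3.51%. Since RNA came from whole cultures, more replicating cells and more RNA per replicating cell cannot be told apart.

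The 9 called members were Cdc6, Mcm2, Mcm3, Mcm5, Mcm10, Rrm2, Dut, Uhrf1 and Chaf1a. The count changed with single libraries and with the model. It was 20 without WT4 (4.01% of all genes called higher there), 4 without KO4 (3.34%), 6 without WT3 (3.01%), 2 within lane A (0.129%) and 1 within lane B (5.04%). It was 0 with the strain label in the model (0.479%) and 0 without both KO1 and WT3 (2.16%). The fits by lane, with the strain label and without both KO1 and WT3 held no surrogate variable. Without one, all 8 libraries gave 2 calls (0.842%). In those fits the part of the libraries cannot be told apart from that of the model. Scaling by library totals in place of TMM called 15 members higher (3.36% of all genes called higher) and 0 lower, and it moved the higher share of all genes called from 38.1% to 58.4%. Without WT3 the medians of the 8 role groups lay between 0.08 and 0.19, against 0.11 to 0.33 with it. The fitted difference of 18 of the 41 members shrank by over 1.5 times without WT3, that of 1 grew by as much and that of 5 turned sign. On lane B alone 22 shrank by as much, 1 grew and 14 turned sign. The fitted difference of all 9 stayed above 0 without WT3 and on lane B alone, and only Dut and Mcm5 remained called whichever 1 of the 8 libraries was left out.

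**Figure D1:**
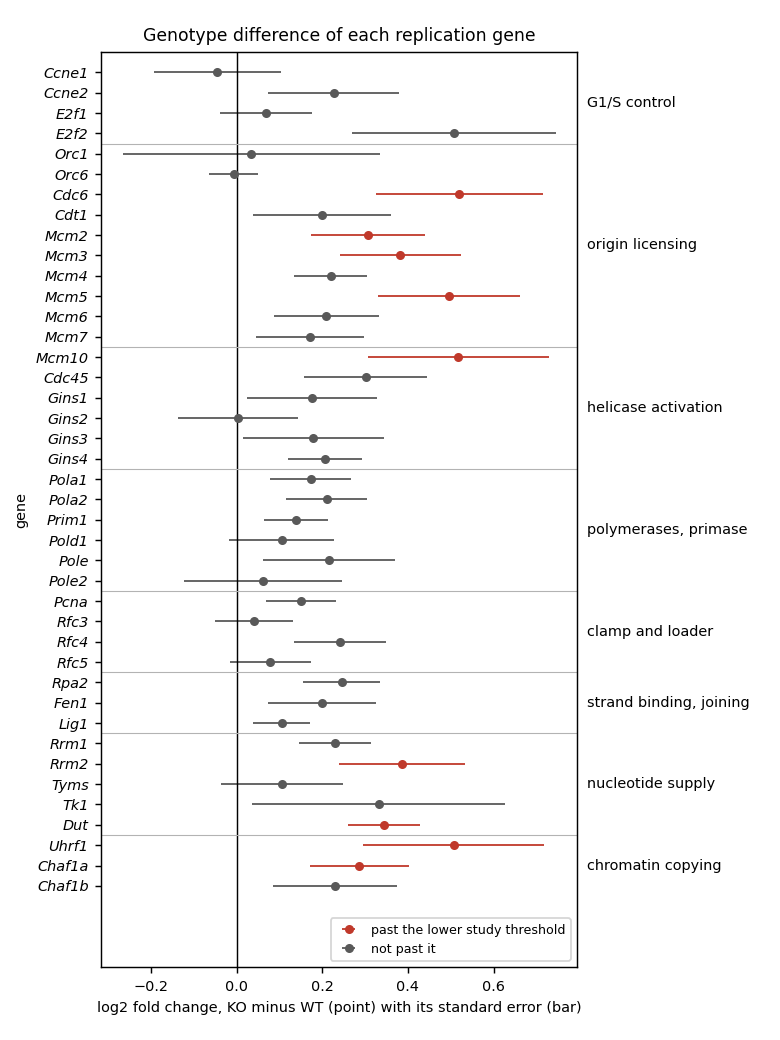
Fitted log2 fold change of each replication gene (x axis, KO minus WT, with its standard error as the bar), by role (y axis). The 9 genes past the lower study threshold are red, and 39 of 41 points lie to the right of 0, most of them between 0 and 0.3.

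Summed over the members, the level was 629, 589, 587 and 622 CPM in KO1 to KO4 and 511, 503, 442 and 592 CPM in WT1 to WT4, a KO mean of 607 ± 21.7 and a WT mean of 512 ± 61.8 (SD, n = 4 each), or 1.19 times higher in the KO. WT4 lay within the range of the KO libraries and the other 3 WT libraries lay below it. WT3 was the lowest of the 8 libraries in 21 members and WT1 in 13, whereas WT4 was the highest WT library in 28. KO1 was the highest of the 8 in 15 members and KO4 in 12.

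In most members the ratio of the genotype means was smaller than the range of single WT libraries. The median ratio of the highest to the lowest WT library was 1.63, that within the KO group 1.37, and the median ratio of the genotype means 1.19. In 40 of 41 members the WT range exceeded the ratio of the means, Dut being the exception. These are unlike measures, since a range of single libraries tends to exceed a ratio of means. The share over all genes is not given here. CPM did not overlap between genotypes in 3 members, E2f2, Gins4 and Dut, which is 7.32% of the members against 1.54% of all genes higher without overlap. These were not the same genes under other scalings. E2f2 stayed without overlap under RLE and TMM factors and Dut under TMM alone, Gins4 overlapped under both, and Mcm3 and Mcm10 did not overlap under either.

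**Figure D2:**
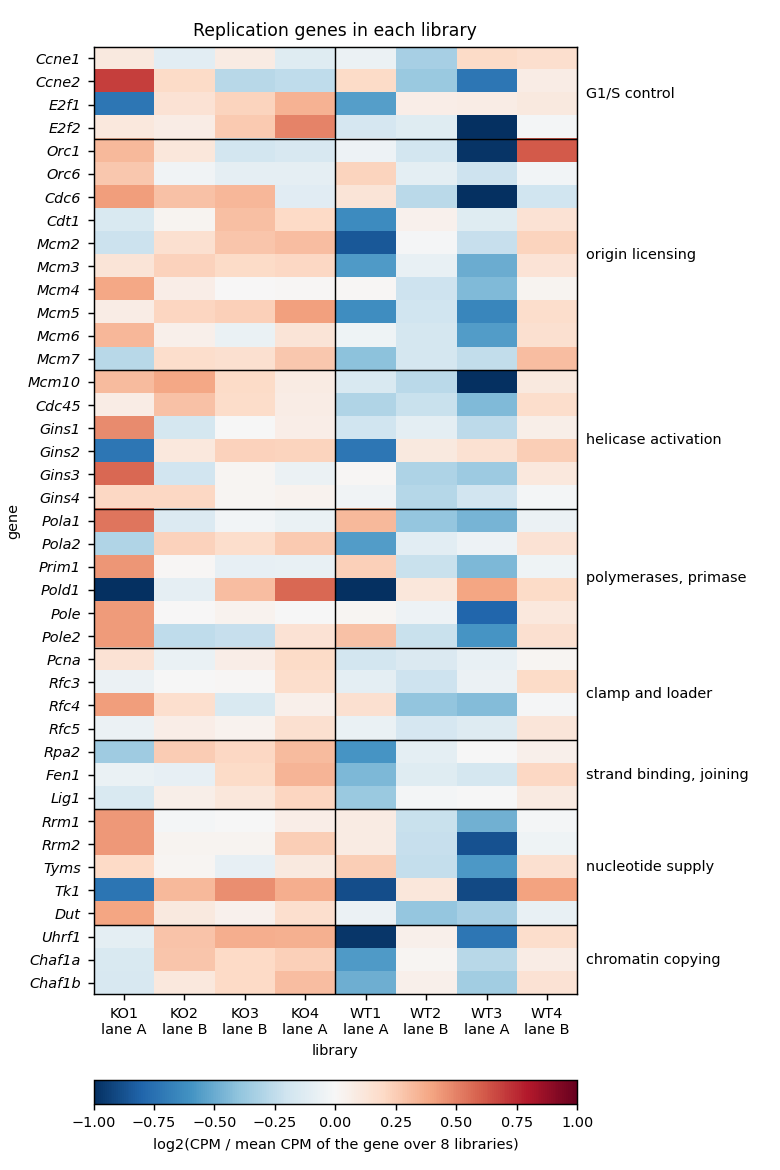
Level of each member in each library as log2 of its CPM over its mean in the 8 libraries (color), with genes in rows by role and libraries in columns with their lane. The WT3 column is blue in most rows, WT4 resembles the KO columns, and KO1 and WT1 share blue rows such as E2f1, Gins2 and Pold1.

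E2F letters were frequent in the promoters of the members. RefSeq promoters of build GRCm38, 250 bases before to 50 after each start, were found for 35 members. TTTCCCGC, TTTCGCGC, TTTGCCGC or TTTGGCGC, the letters to which E2F factors bind, occurred on either strand in 15 of the 35, or 42.9%, against 2.61% of all 27025 genes with a promoter in the table, and in 36.6% of the 41 member promoters against 2.27% of all 32851. CCAAT, the NF-Y word, was in 56.1% of member promoters and 37.4% of all. TTTGAA, the core of the CHR element of mitotic promoters, was in 12.2% and 17.9%. Members with and without E2F letters were called at similar shares. With such a word, 4 of 15 members were called higher and the median log2 fold change was 0.18, and without one 5 of 20 were called and the median was 0.23. A match is a run of letters and not a measured binding site.

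Promoters of 4 members with E2F letters are shown because they cover the range of responses, from Cdc6 and Mcm5, with log2 fold changes of 0.52 and 0.50, through Mcm6 at 0.21 to Orc1 at 0.03, and that of Dut, the member with the smallest p, because its window held none of these letters. The windows of Cdc6, Orc1 and Dut, like that of E2f1, begin downstream of the first annotated start of the gene, so the bases before that start were not searched. Capitals mark the E2F letters on either strand, which overlap in Mcm5 and in the first site of Mcm6. The windows were Cdc6, chr11:98907901-98908200, plus strand, Mcm5, chr8:75109259-75109558, plus strand, Mcm6, chr1:128359656-128359955, minus strand, Orc1, chr4:108579204-108579503, plus strand and Dut, chr2:125247265-125247564, plus strand, and each is written 5′ to 3′ on the strand of its gene.
Cdc6: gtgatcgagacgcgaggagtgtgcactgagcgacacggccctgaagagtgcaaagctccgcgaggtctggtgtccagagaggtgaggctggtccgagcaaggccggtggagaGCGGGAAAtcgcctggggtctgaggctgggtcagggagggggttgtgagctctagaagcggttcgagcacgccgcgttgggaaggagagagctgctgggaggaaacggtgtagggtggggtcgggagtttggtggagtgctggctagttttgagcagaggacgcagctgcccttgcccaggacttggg
Mcm5: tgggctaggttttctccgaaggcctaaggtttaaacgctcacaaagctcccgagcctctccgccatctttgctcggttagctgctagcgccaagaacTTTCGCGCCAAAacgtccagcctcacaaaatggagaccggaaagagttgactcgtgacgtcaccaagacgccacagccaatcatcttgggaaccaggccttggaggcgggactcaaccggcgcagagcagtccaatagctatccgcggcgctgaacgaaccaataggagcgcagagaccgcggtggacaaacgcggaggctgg
Mcm6: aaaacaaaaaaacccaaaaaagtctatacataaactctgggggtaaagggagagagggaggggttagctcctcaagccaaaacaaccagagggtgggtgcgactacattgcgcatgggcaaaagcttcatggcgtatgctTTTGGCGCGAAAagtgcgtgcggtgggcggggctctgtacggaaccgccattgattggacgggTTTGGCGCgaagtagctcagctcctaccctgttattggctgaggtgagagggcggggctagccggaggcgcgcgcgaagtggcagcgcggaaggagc
Orc1: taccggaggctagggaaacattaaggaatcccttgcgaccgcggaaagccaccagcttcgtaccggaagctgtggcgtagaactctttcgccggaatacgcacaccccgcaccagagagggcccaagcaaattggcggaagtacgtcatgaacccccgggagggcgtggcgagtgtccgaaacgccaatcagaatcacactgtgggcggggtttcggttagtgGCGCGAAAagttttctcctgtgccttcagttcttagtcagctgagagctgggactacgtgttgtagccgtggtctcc
Dut: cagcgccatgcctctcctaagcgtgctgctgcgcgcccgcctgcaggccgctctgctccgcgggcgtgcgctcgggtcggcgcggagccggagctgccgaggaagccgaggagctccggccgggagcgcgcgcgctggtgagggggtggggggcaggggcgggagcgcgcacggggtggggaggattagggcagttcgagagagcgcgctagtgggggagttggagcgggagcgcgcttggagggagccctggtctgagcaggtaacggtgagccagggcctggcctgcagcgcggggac

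Genes that control entry into S phase ranged from -0.04 to 0.51 in log2 fold change. Their median was 0.15 and 0 of 4 were called. E2f2, an activating E2F factor and the member of this group with the smallest p, stood at 3.05, 2.98, 3.40 and 4.004 CPM in KO1 to KO4 and at 2.53, 2.61, 1.32 and 2.79 CPM in WT1 to WT4. All 4 KO libraries lay above all 4 WT libraries, but the log2 fold change of 0.51 ± 0.24 (SE) had an unadjusted p of 0.0587 in edgeR (adjusted p = 0.496), and it was 0.28 without WT3. E2f2 was past the lower study threshold in 9 of 23 alternatives, among them DESeq2 (unadjusted p = 0.0481), limma-voom (unadjusted p = 0.0496), library totals (unadjusted p = 0.0374) and no filter (unadjusted p = 0.0259). E2f1, the best-known activator, followed the outlying pair instead of genotype, at 7.41 and 8.35 CPM in KO1 and WT1 and 12.8 to 15.5 CPM in the other 6 libraries. The cyclin E genes, whose products activate CDK2 at the start of S phase, had log2 fold changes of -0.04 for Ccne1 and 0.23 for Ccne2. Without WT3 Ccne1 stood at 0.029 and Ccne2 at 0.15, and on lane B Ccne2 stood at 0.047.

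Origin licensing held 4 of the 9 called members among its 10, with a median log2 fold change of 0.21. Mcm5, a subunit of the helicase ring, stood at 18.05, 19.9, 20.3 and 22.7 CPM in KO1 to KO4 and at 11.1, 14.9, 10.9 and 19.3 CPM in WT1 to WT4. Its log2 fold change was 0.50 ± 0.17 (SE, edgeR's adjusted p = 0.377). WT1, WT2 and WT3 lay below all KO libraries and WT4 within them. Without WT1 the value was 0.33 and without WT3 it was 0.35.

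Mcm3 and Mcm2, 2 further subunits of the ring, had a similar order of libraries. Mcm3 stood at 14.8, 15.9, 15.5 and 15.7 CPM in KO1 to KO4 and at 9.15, 12.8, 9.61 and 14.9 CPM in WT1 to WT4, with a log2 fold change of 0.38 ± 0.14 (SE, edgeR's adjusted p = 0.413). Mcm2 stood at 11.3, 14.7, 15.96 and 16.3 CPM in KO1 to KO4 and at 7.33, 13.04, 11.2 and 15.3 CPM in WT1 to WT4, with a log2 fold change of 0.31 ± 0.13 (SE, edgeR's adjusted p = 0.470). In both genes WT1 was the lowest library and WT4 lay among the KO libraries. Without WT1 the differences were 0.19 for Mcm3 and 0.14 for Mcm2, neither of them called. With 2 surrogate variables, as in that fit, and all 8 libraries they were 0.29 and 0.23. The call of Mcm3 was also lost without KO1 (0.35), and that of Mcm2 without WT3 (0.21) or any single KO library. The other ring genes had log2 fold changes of 0.22 for Mcm4, 0.21 for Mcm6 and 0.17 for Mcm7, so all 6 ring subunits were above 0 with the 8 libraries and 3 of them were called. Without WT3 the difference was 0.10 for Mcm6 and 0.069 for Mcm7, and on lane B that of Mcm6 was -0.064.

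Cdc6, the loader of the ring, stood at 3.99, 3.67, 3.76 and 2.77 CPM in KO1 to KO4 and at 3.26, 2.49, 1.38 and 2.61 CPM in WT1 to WT4. Its log2 fold change of 0.52 ± 0.19 (SE, edgeR's adjusted p = 0.413) was the highest of the 41, and it was 0.34 without WT3 and 0.43, not called, without KO3. KO4 lay below WT1, so the genotypes overlapped. Its partner in loading Cdt1 had a value of 0.20, and the origin recognition genes had values of 0.03 for Orc1 and -0.0062 for Orc6. Orc1 was the least abundant member, with 20 counts in WT3, and its differences within lanes were 0.53 on lane A and -0.33 on lane B.

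Helicase activation had 1 called member of 6 and a median log2 fold change of 0.19. Mcm10, which helps to start the helicase, stood at 8.94, 9.39, 8.19 and 7.59 CPM in KO1 to KO4 and at 6.46, 5.96, 3.19 and 7.66 CPM in WT1 to WT4, a log2 fold change of 0.52 ± 0.21 (SE, edgeR's adjusted p = 0.452). WT4 lay just above KO4, and WT3 stood well below every other library. Without WT3 the difference was 0.31 and without WT1 0.34, and the call was lost without KO2, KO3 or KO4. Cdc45, the helicase cofactor, had a log2 fold change of 0.30 that was not called, and the 4 GINS genes ranged from 0.003 for Gins2 to 0.21 for Gins4. Gins4 was 10.5 to 11.9 CPM in the KO and 8.46 to 10.2 CPM in the WT libraries, without overlap on this scale, and its values on lane A (0.21) and lane B (0.20) were alike.

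The enzymes of the fork itself had small differences and no called gene. Of the 6 polymerase and primase genes and the 4 clamp and loader genes, 0 were called, and their median log2 fold changes were 0.16 and 0.11. Pola2, the regulatory subunit of polymerase alpha, stood at 10.5, 15.1, 14.6 and 15.4 CPM in KO1 to KO4 and at 8.74, 11.96, 12.4 and 14.2 CPM in WT1 to WT4, and its log2 fold change of 0.21 ± 0.095 (SE) had an adjusted p of 0.477 in edgeR. KO1 and WT1 were each the lowest library of their genotype. Pole, the catalytic subunit of the leading strand polymerase, had a value of 0.22, Pold1, that of polymerase delta, 0.11, and Pole2 0.06. Without WT3 the difference of Pole was 0.067 and that of Pole2 -0.043, and on lane B they were -0.075 and -0.28.

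Rfc4, a subunit of the complex that opens the clamp, stood at 11.04, 9.31, 7.42 and 8.55 CPM in KO1 to KO4 and at 9.22, 6.28, 6.13 and 8.19 CPM in WT1 to WT4. Its log2 fold change was 0.24 ± 0.11 (SE, edgeR's adjusted p = 0.475), and WT1 and WT4 lay within the KO range. Pcna, the clamp itself, had a value of 0.15, and the loader genes Rfc3 and Rfc5 had values of 0.04 and 0.08. Without WT3 these were 0.012 for Rfc3 and 0.037 for Rfc5, and Rfc3 was -0.056 on lane B.

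Among the strand binding and joining genes, with a median log2 fold change of 0.20 and 0 of 3 called, Rpa2 had the smallest p. This subunit of the protein that coats single-stranded DNA stood at 8.31, 12.7, 12.3 and 13.2 CPM in KO1 to KO4 and at 7.07, 9.93, 10.6 and 11.1 CPM in WT1 to WT4, a log2 fold change of 0.24 ± 0.091 (SE, edgeR's adjusted p = 0.413), just under the fold limit. Apart from KO1, each KO library lay above all WT libraries. Fen1, the flap nuclease of lagging strand synthesis, had a value of 0.20 and Lig1, which seals nicks, of 0.11.

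Nucleotide supply had a median of 0.33, with 2 of 5 members called, and a median of 0.16 without WT3. Dut, which removes dUTP and so keeps uracil out of DNA, stood at 20.3, 16.6, 15.9 and 17.3 CPM in KO1 to KO4 and at 14.8, 11.9, 12.3 and 14.7 CPM in WT1 to WT4. It was 1.27-fold higher in the KO (log2 fold change 0.34 ± 0.084, SE, edgeR's adjusted p = 0.270). No WT library reached the lowest KO library in CPM. Its differences within lanes were 0.45 (A) and 0.23 (B), and it was 0.23 without KO1 and WT3, where the call was lost.

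Rrm2, the S phase subunit of ribonucleotide reductase, stood at 43.8, 33.1, 33.1 and 38.5 CPM in KO1 to KO4 and at 34.4, 27.7, 17.7 and 31.5 CPM in WT1 to WT4. Its log2 fold change of 0.39 ± 0.15 (SE, edgeR's adjusted p = 0.420) was 0.24 without WT3 and 0.28 without KO4, and it was called in neither case. WT3 was the lowest library by far and WT1 lay within the KO range. Rrm1, the large subunit of the same enzyme, had a value of 0.23, Tk1, which salvages thymidine, 0.33 with a standard error of 0.29, and Tyms, which makes thymidylate, 0.11. Without WT3 the difference of Tk1 was 0.063 and that of Tyms -0.013.

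Chromatin copying had 2 of 3 members called and a median of 0.29. Uhrf1, which carries DNA methylation over to the new strand, stood at 7.93, 10.3, 10.9 and 10.8 CPM in KO1 to KO4 and at 4.32, 8.77, 5.14 and 9.56 CPM in WT1 to WT4, a log2 fold change of 0.51 ± 0.21 (SE, edgeR's adjusted p = 0.462). WT1 and WT3 were the low libraries, and the value was 0.26 without WT1 and 0.33 without WT3, with the call lost without any single KO library. Chaf1a, the large subunit of chromatin assembly factor 1, stood at 11.4, 15.3, 14.5 and 14.9 CPM in KO1 to KO4 and at 8.54, 12.9, 10.4 and 13.3 CPM in WT1 to WT4, a log2 fold change of 0.29 ± 0.12 (SE, edgeR's adjusted p = 0.441). KO1 lay below WT2 and WT4, and the difference was 0.17 without WT1 and 0.19 without WT3, no longer called, as also without KO1, KO2 or KO4. Its partner Chaf1b had a value of 0.23, which was 0.11 without WT3 and -0.009 on lane B.

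Per kilobase of exon, the mean level over the 8 libraries ran from 23.5 CPM for Orc6 and 13.7 CPM for Rrm1 down to 0.42 CPM for Tk1 and 0.18 CPM for Orc1. The level did not follow the difference between genotypes, with a Spearman correlation of -0.03 across the 41 genes, which share libraries and are not independent. Part of the reads of 8 members could be lost to near-identical copies elsewhere in the genome, since over 10% of their transcript matched another place at 95% identity or more: Mcm7, Pcna, Tk1, Uhrf1, Cdc6, Rrm2, Rfc5 and Tyms. Exons of 13 members overlapped a gene on the other strand, Gins2 by 2758 bases of Gse1 and Fen1 by 2039 bases, and use of strand in counting is not stated. The levels of these genes are therefore uncertain.

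Within the lanes the differences were unequal. On lane A, where KO1 and KO4 were compared with WT1 and WT3, the median log2 fold change of the members was 0.41 and 40 of 41 were above 0. On lane B, where KO2 and KO3 were compared with WT2 and WT4, the median was 0.04 and 27 of 41 were above 0, and lane A exceeded lane B in 40 of 41 members. The difference between lanes was not tested. Among the called genes Uhrf1 was at 0.97 on lane A and 0.15 on lane B and Mcm2 at 0.56 and 0.05, whereas Cdc6 was at 0.51 and 0.48.

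**Figure D3:**
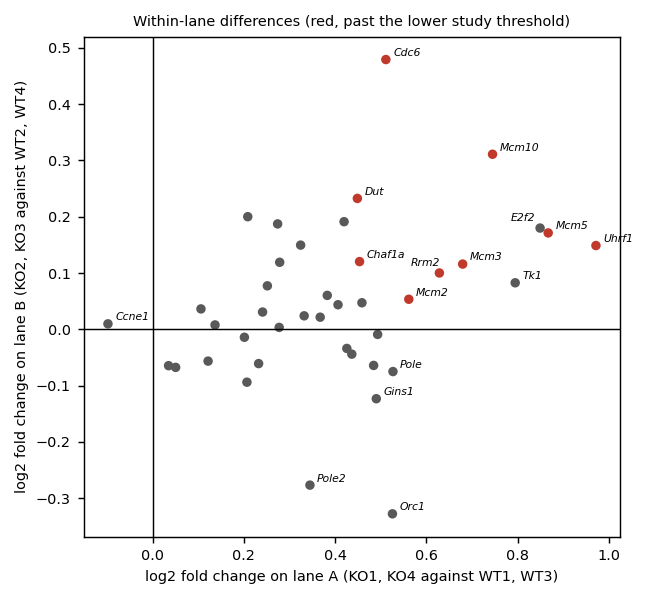
Fitted log2 fold change of each member on lane A (x axis) against lane B (y axis), with 2 KO and 2 WT libraries on each and the 9 called genes in red. On lane A all genes but Ccne1 lie above 0, and on lane B the points spread around 0, from Orc1 at -0.33 to Cdc6 at 0.48.

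The outlying pair moved the members in both directions, and it did so along their base composition. KO1 and WT1 together were higher than the mean of the other 6 libraries in 20 members and lower in 21. The 7 members that were at least 1.5-fold lower in the pair included Pold1, Tk1, Gins2 and E2f1, and 13 members were at least 1.2-fold higher. Across the 41 genes the deviation of the pair had a Spearman correlation of -0.87 with the GC content of the transcript, and of -0.79 across 13623 genes tested. Of the 20 members above the median GC of 50.2%, 3 were higher in the pair, with a median log2 ratio of -0.44, and of the 21 at or below it 17 were higher, with a median of 0.31. The genotype difference followed GC content much less, with a correlation of 0.13, and of 0.17 across the 13623 genes. The pair holds 1 library of each genotype, and the surrogate variable that sets it apart was in the fit. The contrast therefore says little about GC content and genotype. Called members numbered 5 above the median GC and 4 at or below it. With the pair left out, the median log2 fold change was 0.19 with 38 of 41 above 0, and 2 members were called higher, against 1.31% of all genes called higher. That fit held no surrogate variable, and without one 2 members were also called with all 8 libraries.

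**Figure D4:**
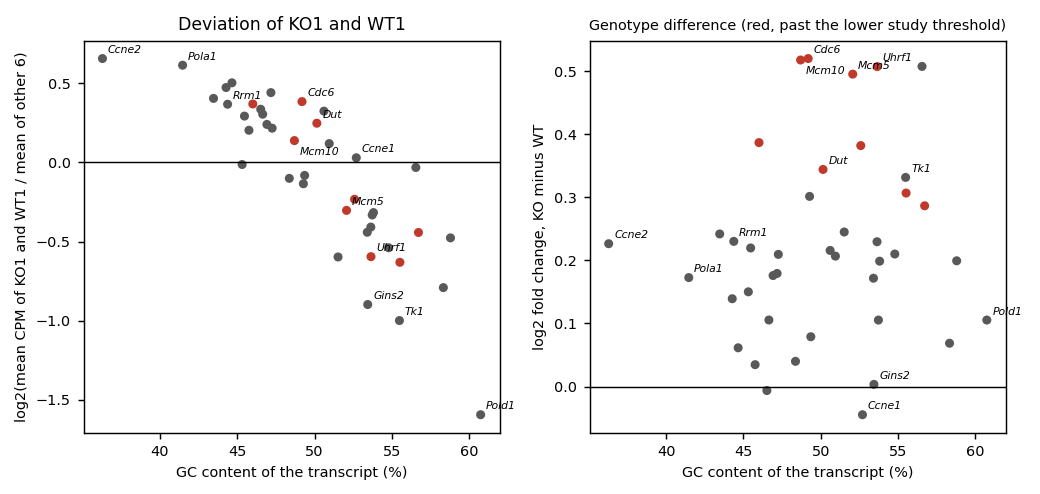
GC content of each member's transcript (x axis, percent) against the log2 ratio of the mean of KO1 and WT1 to the mean of the other 6 libraries (left) and against the log2 fold change between genotypes (right), with the 9 called members in red. The left panel falls from Ccne2 to Pold1, and the right panel shows no such slope.

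Genes of the same pathway outside the 41 had a smaller median difference. Of 75 listed, 73 were tested, 57 had a value above 0, and their median log2 fold change was 0.07. The lower study threshold called 7 higher, against 2.16% of all genes, and 0 lower, against 3.51%. Of the 7, 1 of 31 was in the replication machinery, 2 of 17 in nucleotide and chromatin functions and 4 of 25 among G1/S regulators. The difference between this list and the 41 genes was not tested. The count was 2 higher without a surrogate variable (0.842% of all genes called higher), and 2 higher and 1 lower without WT1 (2.49% called higher).

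Ticrr, needed to recruit CDC45 to origins, was at 7.08 to 10.1 CPM in the KO and 3.73 to 7.55 CPM in the WT libraries (log2 fold change 0.39, edgeR's adjusted p = 0.417). Asf1b, a histone chaperone of S phase, was at 2.35 to 3.05 CPM and 1.05 to 2.01 CPM, without overlap (0.73, edgeR's adjusted p = 0.345). Both genes carried their highest KO value in KO1 and their lowest WT value in WT3. Asf1b remained called whichever 1 library was left out. Ticrr was 0.26 without WT1, 0.25 without WT3 and 0.35 without KO4, none of them called.

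Among the regulators, E2f8, a repressor that follows E2F activity, was at 3.27 to 4.16 CPM in the KO and 1.53 to 3.13 CPM in the WT libraries, without overlap (log2 fold change 0.60, edgeR's adjusted p = 0.399). E2f4, the main repressor E2F of resting cells, was at 18.7 to 27.4 CPM and 13.1 to 26.5 CPM (0.30, edgeR's adjusted p = 0.388). Ccnd2, the cyclin D of neural progenitors, was at 216 to 268 CPM and 136 to 228 CPM (0.26, edgeR's adjusted p = 0.418). The call of E2f8 was lost without KO3 (0.55), that of E2f4 without KO2, WT1 or WT2 (0.22 to 0.27), and that of Ccnd2 without KO3, KO4, WT1 or WT3 (0.15 to 0.24). Cdkn2c, an inhibitor of CDK4 and CDK6, was the remaining called gene, with a value of 0.32. Cdkn1a, the p53 target p21, had a value of -0.0076 and was singled out after its values were seen, because WT3 held 46.8 CPM against 14.6 to 30.8 CPM in the other 7 libraries.

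Mitosis genes and other cell types were read beside the members. Of 22 mitosis genes, 22 were above 0, against 53.4% of all genes, and 13 were called higher, against 2.16%. Their median log2 fold change was 0.43, and the number called in other fits is not given here. That median was 0.25 without WT3, 0.67 on lane A and 0.15 on lane B. Their summed level was 377 to 576 CPM in the KO libraries and 439, 324, 168 and 363 CPM in WT1 to WT4, so that WT3 stood lowest here as well. The range over the 8 libraries was 3.43-fold for mitosis genes and 1.42-fold for the 41 replication genes.

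Mki67, the proliferation antigen, was at 60.7 to 109 CPM in the KO and 26.1 to 85.8 CPM in the WT libraries, with a log2 fold change of 0.33 that was not called. Top2a, the topoisomerase that untangles chromosomes, was at 66.6 to 119 CPM and 25.6 to 84.3 CPM, with a called value of 0.48. Both genes changed sign without KO1 and WT3, to -0.15 and -0.029, in a fit that held no surrogate variable and kept WT1, the partner of KO1. Without KO1 and WT1, also with no surrogate variable, Mki67 was 0.34 and Top2a 0.48, neither of them called. The call of Top2a was lost as well without KO3 or KO4. Top2a stood at 0.31 without WT1 and at 0.28 without WT3. Mki67 stood at 0.14 without WT1 and at 0.12 without WT3, and at 0.50, then called, without WT2.

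Progenitor markers had a median difference near 0. The 12 progenitor markers, led by Fabp7 and Slc1a3, summed to 1575 to 1810 CPM in the KO and 1309 to 1780 CPM in the WT libraries, with none of them at 0, a median log2 fold change of 0.01 and 8 above 0, 1 of them called. WT3 was the lowest library of that sum too. Microglia markers were scarce and summed to 11.5, 37.2, 56.7 and 4.18 CPM in KO1 to KO4 and 5.02, 10.3, 5.04 and 24.8 CPM in WT1 to WT4, with 8 of 9 tested above 0, a median log2 fold change of 1.33 and 0 called. KO3, KO2 and WT4, all on lane B, had the highest sums. None of the 10 markers was at 0 in all libraries, and 1, P2ry12, was below 1 CPM in each.

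Of the other lists, astrocyte markers summed to 475 to 1180 CPM in the KO and 613 to 900 CPM in the WT libraries, oligodendrocyte precursor markers to 535 to 625 CPM and 502 to 603 CPM, interneuron markers to 217 to 355 CPM and 195 to 322 CPM, and endothelial and fibroblast markers to 20.5 to 40.2 CPM and 10.5 to 51.8 CPM. The median log2 fold change was 0.16 for astrocyte markers (7 of 8 tested above 0) and 0.25 for interneuron markers (7 of 10). It was -0.01 for oligodendrocyte precursor markers (3 of 6) and 0.20 for endothelial and fibroblast markers (5 of 9). No marker of these lists was called in either direction, and no gene in them was at 0 in all 8 libraries. The part of any of these cell types, or of the low progenitor and mitosis levels of WT3, in the difference of the replication genes was not tested.

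**Figure D5:**
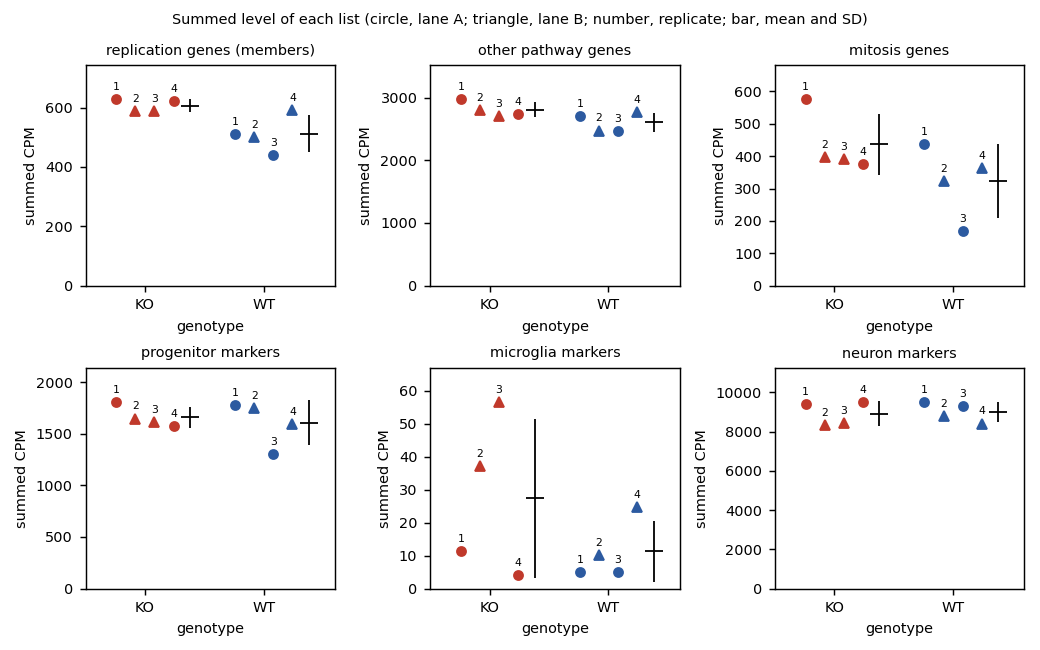
Summed CPM (y axis, from 0) of the members and of 5 other lists by genotype (x axis), with 1 point per library, numbered by replicate, circles for lane A and triangles for lane B, and the mean and SD of the 4 libraries as a bar. WT3 is the lowest library for members, mitosis genes and progenitor markers, and WT4 lies level with the KO libraries for the members.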

How the data were processed

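Poly-A RNA from cultured neurons was sequenced in 4 KO and 4 WT libraries, grouped by the genotype and replicate number of the labels. The authors deposited unnormalized counts of reads for each Ensembl gene, made with Cutadapt 1.10, Bowtie2 2.2.8, STAR 2.5.3a and HTSeq 0.6.1p1 on mouse build GRCm38, without pooling replicates. Only uniquely aligned reads were counted, which lowers genes with near-identical copies. The labels and the study's methods disagree on read length and on single or paired reads. The library kit marked strand, but whether counting used it is not given in the sources used here. The authors tested the counts with DESeq2 and surrogate variables.

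Every count column was matched to a library. Of 32726 identifiers, 23260 were matched to a symbol. Counts were fitted over all genes in R 4.3.3 with edgeR 4.0.16 (filterByExpr, TMM, robust quasi-likelihood F test, Benjamini-Hochberg adjustment) with 1 surrogate variable from svaseq (sva 3.50.0). The standard error is the absolute log2 fold change divided by the square root of F. CPM are counts scaled by the library total. Totals of 31247078 to 67155004 left 20 to 3155 counts per member and library. Counts of any 2 libraries differed beyond sampling noise, with a chi-square of at least 18.8 times its degrees of freedom. Transcript lengths, GC content and overlaps came from the NCBIM37 annotation, whose coordinates were not combined with GRCm38, and matches elsewhere from blastn 2.17.0 with at least 50 bases at 95% identity. Promoter sequences are RefSeq's for GRCm38 and were not given for Ccne2, Mcm4, Gins1, Gins2, Gins4 and Pole.

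Values in every library are given for Nuak1, the called members and the member with the smallest p in each role group. Of the other pathway genes, up to 3 called genes per list are given as ranges, and 1 that met this rule is not reported here. The members and lists were chosen with earlier results of these data known. Ctf8 and Cdkn2d of the other pathway list were not analysed here. Alternatives were the number of surrogate variables, lane, strain label or replicate number as a term, other size factors and filters, DESeq2 1.42.0, limma-voom (limma 3.58.1), each lane alone and the leaving out of libraries. Fits with lane, strain label or replicate number as a term held no surrogate variable. Neither did those on each lane alone, without KO1 and WT1 or without KO1 and WT3. The fit without WT1 held 2. The model was tested on simulated data.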

Additional observations from a re-analysis of the deposited data

Results flagged for a closer look

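In 8 of 82 groups of 4 libraries, 1 library lay further from the others than the 95% limit of Dixon's test allows, where chance would give about 4.1. In 7 of the 8 that library was KO1, and in 1 it was WT1. KO1 was the high library for Orc6, with 46.7 CPM against 36.4 to 37.8 CPM in the other KO libraries, for Mcm4 (31.8 against 24.2 to 25.4 CPM), Pola1 (19.7 against 12.4 to 13.4 CPM), Prim1 (28.0 against 19.5 to 20.8 CPM), Pole (25.3 against 18.8 to 19.3 CPM) and Rrm1 (73.98 against 54.1 to 57.2 CPM). It was the low library for Tk1, with 1.32 CPM against 2.75 to 3.03 CPM. WT1 was the low library for E2f1, at 8.35 CPM, while WT2 to WT4 held 12.8 to 13.03 CPM.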

How the results depend on the processing

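The direction of the median held and the number of calls did not. Over 23 alternatives the median log2 fold change of the members lay between 0.04 (lane B) and 0.41 (lane A), against 0.21, and 23 of 41 members stayed above 0 in every one in which they were tested. The number of members past the adjusted threshold was 0 in each alternative, with a lowest adjusted p of 0.0632, for Dut. The number past the lower study threshold, 9, was 2 without a surrogate variable, 4 with lane as a term, 0 with the strain label, 15 with library totals only, 2 on lane A, 1 on lane B, 2 without the pair KO1 and WT1, and 0 without KO1 and WT3, and it ranged from 4 to 20 when 1 library was left out. Of the other pathway genes, 7 became 2 without a surrogate variable (0.842% of all genes called higher), 2 with lane (1.12%) and 1 with the strain label (there lower in the KO). They became 0 on lane A (0.129%), 1 on lane B (5.04%), 1 without KO1 and WT1 (1.31%) and 2 without KO1 and WT3 (2.16%). When 1 library was left out, 3 to 9 were called (2 higher and 1 lower without WT1, 7 and 1 without WT2). Members without overlap, 3, became 20 on lane A (9.34% of all genes were higher without overlap there), 16 on lane B (1 of them lower in the KO; 42.8% of all genes in either direction), 13 without KO1 and WT1 (6.75% higher), and 10 without KO1 and WT3 (12.3%), with 3 to 11 when 1 library was left out (1.90% to 4.71%). These rise by construction, since fewer libraries overlap less. The cause of the other shifts was not tested. Mki67 reversed to -0.072 with the strain label and to -0.15 without KO1 and WT3, and Top2a to -0.029 without KO1 and WT3. These fits held no surrogate variable.

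Over all genes, the 8 past the adjusted threshold became 4 without a surrogate variable, 17 with 2, 4 with lane, 1 with the strain label, 49 with no filter, 165 in DESeq2, 0 on lane A by edgeR (96 at an unadjusted p under 0.05), 99 on lane B, 3 without KO1 and WT1 or without KO1 and WT3, and 3 to 114 (the latter without WT3) when 1 library was left out. At the lower study threshold, 352 higher and 571 lower became 137 and 259 without a surrogate variable, 183 and 269 with lane, 78 and 232 with the strain label, 547 and 390 with library totals, 682 and 794 with no filter, 21 and 75 on lane A and 849 and 763 on lane B. A replicate block gave 3, with 10 members past the lower study threshold (1.66% of all genes called higher) and a median of 0.21. The same numbers do not pair the libraries, since deviations correlated at 0.89, 0.08, 0.37 and 0.16 within pairs 1 to 4, and not every library correlated best with its own number. The alternatives without KO1 and WT3 and with TMM-scaled CPM, which gave 4 without overlap, were chosen after seeing the data. With 4 libraries per genotype, 1 library can decide a call, and only KO4, WT2 and WT4 compare genotypes within a strain label, so strain label and genotype cannot be told apart elsewhere. At 20 counts, Orc1 is limited by depth.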
